A study of Mus musculus with 6 samples.

Results

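The RNA pool described here came off beads that carried an antibody to tau phosphorylated at serine 396 (Tau pS396), and it was ranked by signal on a small RNA array. Members were chosen by the measured red values themselves. A probe belonged to the pool where its red (Cy5, CLIP) signal was well above background, by the scanner software's flag, on all 6 arrays: 1289 of 14192 small RNA probes passed, 9.08%. They stood for 545 RNAs of 10935, counting a named set of up to 5 probes, or 1 unnamed probe, as 1 RNA. A name was at hand only for RNAs with a probe above background on at least 3 arrays. Of the 2380 named RNAs, 541 were members, and 4 members had no name. The same red values rank them, so ranks, classes and levels are a description with no test.

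The tissue was frozen hippocampus from 3 wild-type (WT) samples and 3 samples of PS19, a mouse line transgenic for human tau bearing P301S, with 1 array a sample. It was homogenised and crosslinked with ultraviolet light, so that RNA in contact with protein stays bound, and the antibody complexes were then pulled down. Bound RNA and unbound RNA from the supernatant, 1 ug each, got different dyes and met on 1 array per sample. The supernatant channel is the comparison within each array; a pull-down with another antibody or with bare beads was not analysed here. The labels give neither ages nor the promoter of the transgene nor the number of animals behind a sample, so the spread between arrays may be partly technical.

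Tau is a protein that binds and stabilises axonal microtubules, and its phosphorylated form accumulates in the tangles of tauopathies. Mature microRNAs are short RNAs cut from hairpin precursors, and bases 2 to 8, the seed, pair with target messages. tRNAs can be cut at the anticodon (5' and 3' tiRNAs) and into shorter fragments from the 5' end (tRF5) or the 3' end (tRF3), and snoRNAs guide chemical modification of ribosomal RNA.

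The arrays were not alike. WT 1 had 10.6% of its probes well above background in CLIP, WT 3 24.7% and the other arrays 37.6% to 49.4%, and 1868 probes missed the rule only on WT 1. Without WT 1 the pool would hold 1250 RNAs, so that array sets its size. The arrays were read in 4 scans: 1 held WT 2 with PS19 1, 1 held PS19 2 with PS19 3, and the remaining arrays had a scan each. The scanner's red detector was set to 386 volts on WT 1 and to 420 or 421 on the others. Its green detector was set to 304 volts on WT 1, 288 on WT 3 and 355 on the others. What part these settings have in the differences of WT 1 and WT 3 from the other arrays was not tested. Spearman's rho of the members' CLIP ranks was 0.974 and 0.976 for the pairs that shared a scan and 0.539 to 0.848 for the 13 other pairs, a description over RNAs that share probes and labelling. The pair with the higher value, WT 2 and PS19 1, crosses genotypes. At the edge of the pool, the lowest members were mmu-miR-293-3p, mmu-miR-3067-5p and mmu-miR-882, with mean log2 CLIP levels of 8.22, 8.37 and 8.47. Just outside lay Gm25761, the precursor mmu-mir-12188 and Gm23323, with means of 12.28, 11.99 and 11.75, which missed the rule on WT 3, where they read 6.77, 7.31 and 5.17.

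The mature sequences of the highest microRNAs are shown because of what they share: many are rich in guanine. They are printed 5' to 3' from RefSeq's annotation of the mouse assembly GRCm38.p6, with the seed in capitals. The last 3 are the highest members of the lists of astrocyte-rich, neuronal and let-7 microRNAs, shown beside them for comparison.
mmu-miR-7078-5p: uGUGGGUGguaggagacgcu
mmu-miR-3473g: cAAAAGUGaggcuggggaga
mmu-miR-3474: cCCUGGGAggagacguggauuc
mmu-miR-7082-5p: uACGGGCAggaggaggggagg
mmu-miR-1892: aUUUGGGGacgggagggaggau
mmu-miR-7011-5p: aGGAGGAUgggagagggaggugu
mmu-miR-7045-5p: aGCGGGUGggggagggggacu
mmu-miR-202-3p: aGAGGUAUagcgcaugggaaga
mmu-miR-181a-5p: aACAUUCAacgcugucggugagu
mmu-miR-134-5p: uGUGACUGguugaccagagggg
mmu-let-7e-5p: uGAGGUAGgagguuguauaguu
The highest, mmu-miR-7078-5p, lies on the plus strand of chr8:117459270-117459289. mmu-miR-3473g lies at chr2:126902290-126902309 on the minus strand and mmu-miR-3474 at chr2:158638583-158638604 on the plus strand. The 8 upper sequences hold 40.9% to 66.7% guanine, and the last 3 hold 26.1%, 45.5% and 40.9%.

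The same 2 microRNAs were among the 4 brightest members of every array. mmu-miR-7078-5p ranked 1, 3 and 1 on WT 1 to WT 3 and 2, 1 and 1 on PS19 1 to PS19 3, with log2 CLIP levels of 18.37, 20.79, 18.64, 20.66, 21.59 and 21.65. mmu-miR-3473g ranked 3, 1, 3, 4, 2 and 3 in the same order, with levels of 17.81, 20.82, 18.32, 20.58, 21.15 and 20.92. Both were lowest on WT 1 and WT 3 and highest on PS19 2 and PS19 3, and WT 1 and WT 3 were also the lowest for Gm23175, mmu-miR-3474, Gm24794 and Asp-GTC-2. Levels of whole arrays differed too, with medians over the members from 10.01 on WT 1 to 12.02 on WT 2, and ranks do not carry that difference. The 5 probes of mmu-miR-7078-5p spanned 0.40 log2 units on the median array, and those of mmu-miR-3473g spanned 0.34. Over the 321 mature microRNA members with several probes that range had a median of 1.17, with quartiles of 0.52 and 2.58, so a microRNA's place among near neighbours depends on its probes. A rank compares signals of different probes, and how far a probe's own binding sets its signal was not tested.

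Small transcripts named by gene symbol came next. Gm23175, annotated in GRCm38.p6 as a snoRNA gene at chr3:33959069-33959200, ranked 2, 2, 17, 1, 3 and 2, with log2 levels of 18.07, 20.80, 17.30, 20.76, 21.04 and 21.00. Gm24794, annotated there as a pseudogene at chr17:12301036-12301175, had levels of 17.41, 20.69, 17.18, 20.63, 20.37 and 20.11. On WT 3 they ranked 17 and 21, against 1 to 8 on the other arrays. Gm26147, also a snoRNA gene, had a mean rank of 9.5 (6 to 23). Gm22268, another, had 16 over 4 arrays with values of 4 to 37. Full-length tRNA of aspartate with the anticodon GTC held positions 6 and 7. Asp-GTC-2 read 16.95, 20.34, 17.40, 20.28, 19.60 and 19.02, and ranked between 5 and 14. Asp-GTC-1 ranked between 5 and 14 on the 4 arrays where its spot carried no outlier flag. Near-identical tRNA genes can share signal, so these 2 are not independent.

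The rest of the 20 highest were mature microRNAs apart from 5'tiRNA-35-AlaAGC-1, a 5' piece of an alanine tRNA, which had a mean rank of 11.7 on 3 arrays. mmu-miR-3474 had a mean rank of 6.40 over 5 arrays and mmu-miR-5112 one of 10.8 (4 to 23). mmu-miR-7040-5p (14.5), mmu-miR-7002-5p (19.5), mmu-miR-6965-5p (19.8), mmu-miR-7241-3p (22.5) and mmu-miR-202-3p (25) had values on 4 arrays, because a spot flag removed them on both arrays of 1 scan, WT 2 and PS19 1. mmu-miR-7082-5p (15.7), mmu-miR-1892 (20), mmu-miR-7011-5p (22.0) and mmu-miR-7045-5p (23.8) had values on all 6. Of these 4, all ranked lowest on WT 1, at 41 to 69. Values on all 6 arrays were present for 409 members, on 5 for 90 and on 3 or 4 for 42.

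**Figure D1:**
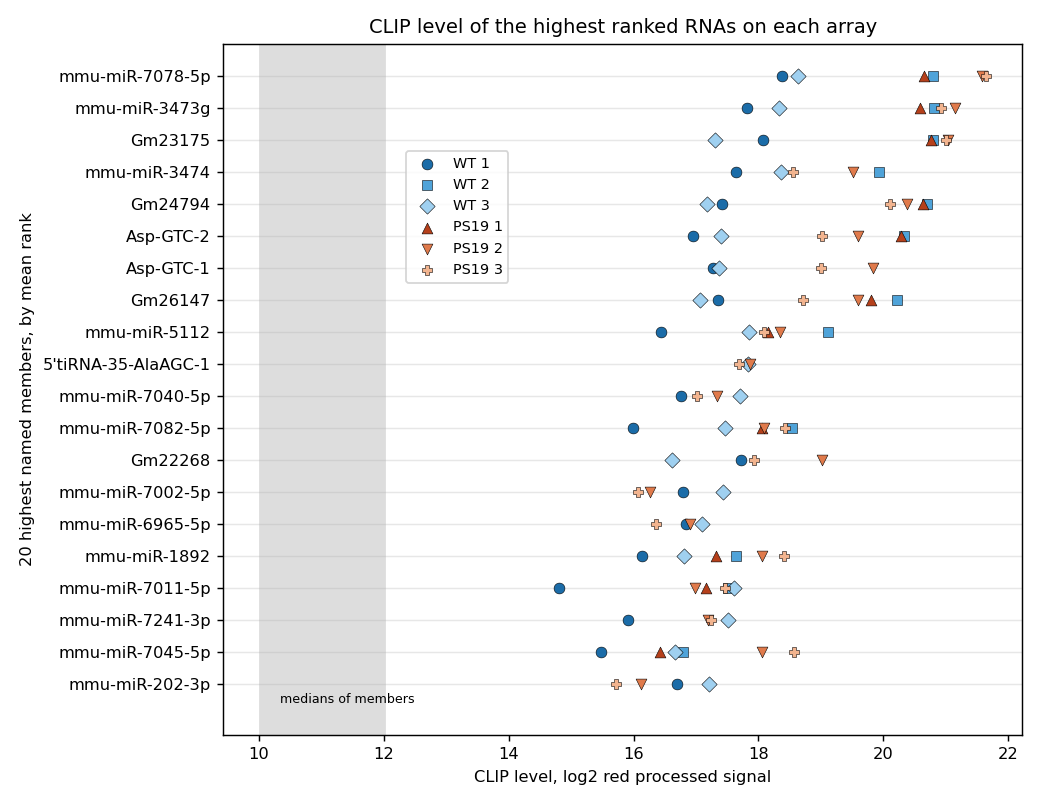
The log2 CLIP level (red processed signal) of the 20 highest named members is plotted for each array, 1 symbol per array, with the range of the arrays' member medians in grey (10.01 to 12.02). The first 3 members read 17.30 to 21.65, with WT 1 and WT 3 lowest; symbols are missing where a spot was flagged.

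Order was less stable below the first places. Of the 100 brightest members of each array, 29 RNAs were shared by all 6 arrays, and 173 RNAs were among them on at least 1. The 29 held 16 mature microRNAs, and 18 of the 29 stood below the first 20 by mean rank, among them mmu-miR-483-5p (mean rank 32.3), Gm25490 (36), mmu-mir-3971 (43.2), mmu-miR-1224-5p (60) and 5 tRF5-22-CysGCA fragments. The widest ranges within the top 100 were those of tRF5-23-AspGTC-1, tRF5-20-SerAGA-3, mmu-miR-8110, mmu-miR-3960 and mmu-miR-721. tRF5-20-SerAGA-3, a 5' serine tRNA fragment, ranked 75 and 12 on WT 1 and WT 2, 275 on WT 3, and 9, 23 and 21 on the PS19 arrays. tRF5-23-AspGTC-1 ranked 88, 21, 327, 22, 59 and 51 in the same order. For both it was WT 3 that stood apart, and WT 2 ranked with PS19 1, its scan partner. mmu-miR-8110 ranked 174, 46, 97, 45, 14 and 9, highest on the 2 arrays of the last scan. mmu-miR-3960 and mmu-miR-721 ranked lowest on WT 1, at 190 and 173. Leaving out WT 1 kept 18 of the 20 and 94 of the 100 highest RNAs, and mmu-miR-7078-5p, mmu-miR-3473g and Gm23175 kept the first 3 places.

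A few members carried most of the signal. On WT 2 and the 3 PS19 arrays the 10 brightest members held 62.4% to 66.5% of the members' summed red signal, and 5 to 7 members made up 50% of it. On WT 1 and WT 3 the 10 brightest held 24.8% and 22.1%, and 30 and 32 members were needed. The 100 brightest held 83.8% to 92.0% on all 6 arrays. The brightest single member held 3.92%, 9.25% and 3.53% in WT 1 to 3, and 10.4%, 16% and 18.4% in PS19 1 to 3. In these shares WT 2 lay with the PS19 arrays and not with the other WT arrays.

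**Figure D2:**
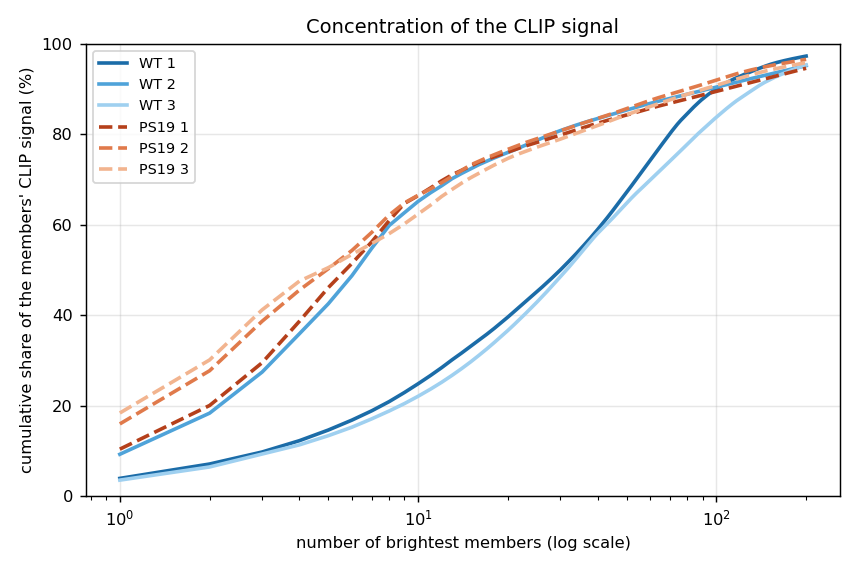
The cumulative share of the members' summed CLIP signal is drawn against the number of brightest members (log scale) for each array, WT solid and PS19 dashed. WT 1 and WT 3 reach 24.8% and 22.1% at 10 members, while the other 4 arrays reach 62.4% to 66.5%.

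By class, mature microRNAs made up most of the pool. They were 322 of the 545 members and 56 of the 100 highest. Small transcripts followed with 89 members and 16 of the 100, precursor microRNAs with 45 and 7, tRF5 with 33 and 10, 5'tiRNAs with 20 and 1, tRNAs with 15 and 3, tRF3 with 11 and 4 and 3'tiRNAs with 6 and 1. By gene annotation the small transcripts were 55 snoRNAs, 23 pseudogenes, 10 not in the gene table and 1 microRNA gene, Mir1949, which is not counted as a precursor. The 4 unnamed members hold 2 places in the 100, and each has values on 2 arrays. No tRF1, a fragment of the tRNA precursor's trailer, was a member, of 4 named. As a share of the named RNAs of a class, membership ran from 44.1% of full-length tRNAs and 39.9% of small transcripts to 28.4% of mature microRNAs, 26.0% of precursors and 7.55% of tRF5. Without WT 1 the pool of 1250 held 721 mature microRNAs, 178 tRF5 and 114 5'tiRNAs, with 54 precursors and 99 small transcripts. Without WT 3 the pool of 649 held 335 mature microRNAs, 87 precursors and 19.4% small transcripts, against 16.3% with all arrays.

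In summed signal, mature microRNAs held 36.4%, 51% and 71.8% on WT 1 to WT 3 and 47.5%, 56.0% and 61.3% on PS19 1 to PS19 3. The WT mean was 53.1% ± 17.8 (SD, n = 3). The PS19 mean was 54.9% ± 6.96 (SD, n = 3). The PS19 values lay inside the WT range. Small transcripts held 29.6%, 32.3%, 10.1%, 32.6%, 27.3% and 24.9% in the same order, and all but WT 3 were above 24%. Full-length tRNAs held 3.59% to 12.7%. Precursors held 13.2% on WT 1 and 1.94% to 2.99% on the other 5 arrays. WT 1 thus had another composition: the median rank of member precursors was 124.5 there and 263.5 to 404 elsewhere; that of small transcripts was 261.5 to 367 elsewhere and lower in number, so brighter, on WT 1. The supernatant of the same array had a similar share of precursors, with 15.9% of its signal over the members on WT 1 and 1.79% to 3.55% on the others. Smaller classes differed more between the channels. On WT 1, 5'tiRNAs held 3.37% in CLIP and 1.03% in the supernatant, and tRF3 2.58% and 0.96%. For 3'tiRNAs the shares were 1.27% and 0.41% on WT 1, but 0.17% and 0.46% on WT 2.

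**Figure D3:**
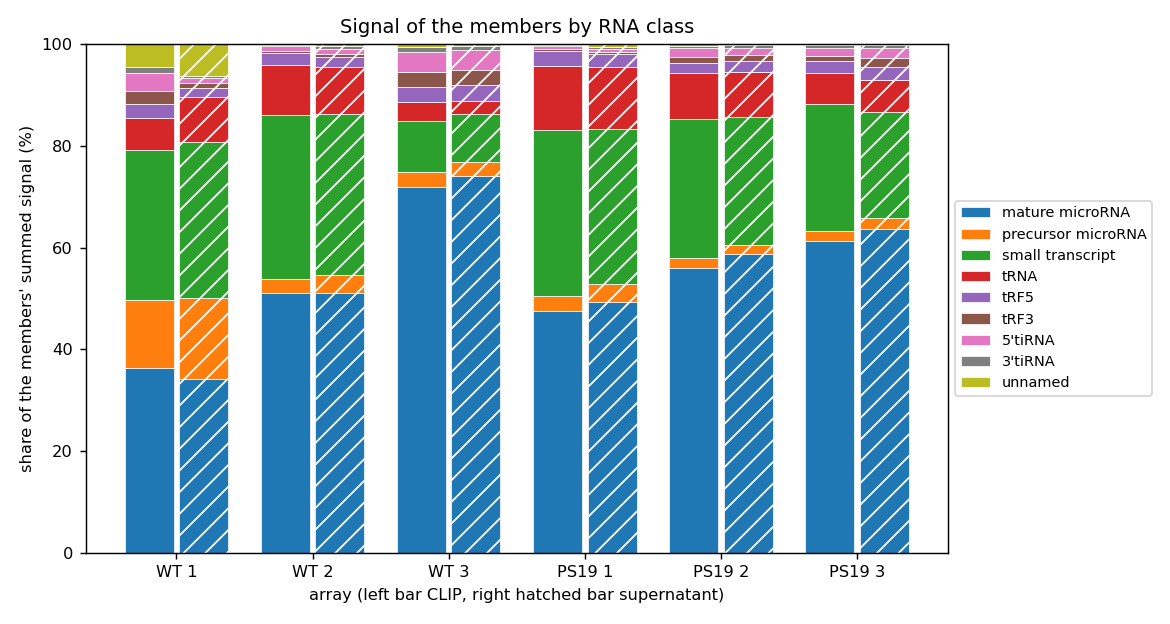
Stacked bars give each RNA class's share (%) of the members' summed signal on each array, CLIP on the left and supernatant on the right (hatched). Mature microRNAs range from 36.4% on WT 1 to 71.8% on WT 3 in CLIP. For the larger classes the hatched bar of each array resembles its neighbour.

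The tissue label was set against microRNA lists. Of 18 neuronal microRNAs listed, 8 had a name in the authors' deposited table and 1, mmu-miR-134-5p, was a member, with a mean rank of 257; its log2 levels were 8.54, 12.05, 12.01, 11.77, 11.74 and 11.89. mmu-miR-124-3p, the abundant neuronal microRNA, was named but was no member: each of the 6 arrays had some probe of it above background, no probe passed on all, and its levels were 8.07, 6.87, 9.55, 8.04, 9.90 and 9.60. Summed over the 8 neuronal names, the linear CLIP signal was 1205 to 7391 in WT and 6193 to 7260 in PS19. Over the named astrocyte-rich microRNA it was 790 to 36303 in WT and 25340 to 38395 in PS19, and over the named microglial one 362 to 2152 and 1639 to 2260. mmu-miR-124-5p and mmu-miR-129-5p were above background on 5 arrays, mmu-miR-9-3p and mmu-miR-138-5p on 4, and mmu-miR-9-5p and mmu-miR-132-5p on 3. The count rests on WT 1 and WT 2: without WT 1, mmu-miR-124-5p and mmu-miR-129-5p joined (3 of 8, against 63.6% of all named mature microRNAs), and without WT 2, mmu-miR-124-3p did (2 of 8, against 28.6%). Of the other lists, 1 of 6 astrocyte-rich microRNAs was named, mmu-miR-181a-5p. It was a member, with a mean rank of 101.5 (33 and 29 on WT 2 and PS19 1, 322 on WT 3). mmu-miR-181c-5p and mmu-miR-181d-5p, which share its seed ACAUUCA, were members too. Of 5 microglial microRNAs 1 was named, mmu-miR-155-5p (370.2), and it was a member. Of 9 let-7 family microRNAs, 8 of them named, 1 was a member, mmu-let-7e-5p (412). Without WT 1 the let-7 members were 4, with mmu-let-7b-5p, mmu-let-7c-5p and mmu-let-7k added. No listed microRNA of oligodendrocytes (2 of 5 named), red cells and platelets (1 of 6), vessels (1 of 6), choroid plexus and epithelium (7 of 12), muscle (6 of 8) or liver (0 of 2) was a member. Without WT 1, 1 of the 2 named for oligodendrocytes, 3 of the 7 for choroid plexus and epithelium and 2 of the 6 for muscle were members. A microRNA with no name is not analysed here. Of 5643 probes above background in CLIP on at least 3 arrays, 5637 had a name. With few exceptions at most, a listed microRNA with no name was thus below that level or not on the array. Several listed microRNAs are expressed by more than 1 cell type of brain. With 1 of 8 named neuronal microRNAs in the pool, against 28.4% of all named mature microRNAs, the lists do not settle a cell type, and the pool is called by its antibody and tissue labels only.

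The mature microRNAs of the pool shared a base composition that the rule did not use. Sequences were found for 277 of the 322 mature members. Their median guanine content was 43.5%, and it was 47.6% for the 49 in the top 100, 30.0% for the 710 named microRNAs outside the pool and 26.9% for all 1679 in the sequence table. By place in the ranking the median was 50% in positions 1 to 50, 45.5% in positions 51 to 200 and 38.1% in positions 501 to 545. Median uracil content was 14.3% in the top 100, 18.2% over the members and 26.1% in the table. The run GGGG, looked for on the RNA strand and with overlaps counted once, was in 55.1% of the top 100's sequences, in 34.7% of the members' and in 11.2% of the table's. A match is a run of letters and no site. Without WT 1 the median was 48.8% in the top 100 and 38.1% over the larger pool.

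The composition was a feature of both channels. Over 944 to 987 named microRNAs per array, Spearman's rho of guanine content with the CLIP level was 0.505 to 0.554, and with the supernatant level 0.557 to 0.580. With the ratio of CLIP over supernatant it was -0.204 to 0.137, above 0 on WT 3 only. Among the members with a sequence alone, rho of guanine content with the CLIP level was lower, from 0.179 on WT 1 to 0.389 on WT 3. These are descriptions across microRNAs that share labelling, array and scanner, and what part the labelling or the probes have in them was not tested.

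**Figure D4:**
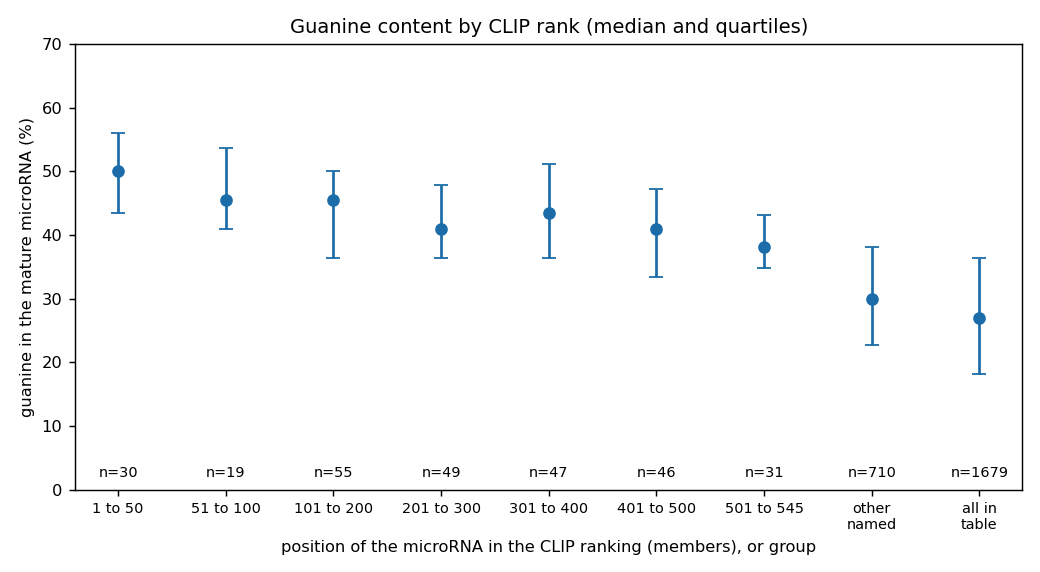
Points give the median guanine content (%) of mature microRNAs by position in the CLIP ranking, then for other named microRNAs and for all in the sequence table, with bars for the quartiles and n below. The median is 50% at positions 1 to 50 and 26.9% over the table.

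Names tell of the same microRNAs from another side. Late entries of the microRNA register have high numbers, and 49 of the 56 mature microRNAs in the top 100 (87.5%) were numbered 1000 or above, against 74.8% of the members and 56.4% of named microRNAs outside the pool. Names ending in 5p were 55.9% of the mature members and 46.0% of those outside, and names ending in 3p 19.6% and 36%. The members had 252 distinct seeds, of which 21 were shared by several members, 46 in all. mmu-miR-7078-5p shared GUGGGUG with mmu-miR-698-5p, and mmu-miR-6965-5p shared GAGGGAG with mmu-miR-3103-5p and mmu-miR-7047-5p. Most of the pool's microRNAs thus belonged to no seed family within it.

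Among precursors, the hairpins that hold the mature strand, mmu-mir-1960 ranked highest (mean rank 38.5 on 4 arrays), then mmu-mir-3971 (43.2), mmu-mir-7020 (47.3 on 3 arrays) and mmu-mir-7237 (76.2). Of 45 member precursors 36 had a named mature strand, and for 13 that strand was a member too, as for mmu-mir-7020 and mmu-mir-181d. A precursor probe can read part of the mature strand, which these data do not separate. mmu-mir-3971 had the narrowest levels of the 4, at 16.08, 15.14, 15.56, 15.40, 15.39 and 15.21.

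tRNA-derived RNAs gave 85 members of 851 named, 70 of them fragments, and 19 of the 100 highest. The members fell into 21 groups by amino acid, 17 nuclear and 4 mitochondrial. Among the 100 highest, cysteine and aspartate gave most. Cysteine tRNA gave 13 members of 86 named and 8 of the 100 highest, aspartate 12 of 18 and 7, tyrosine 10 of 16 and none in the 100, while glutamate gave 0 of 40 and isoleucine 0 of 21. The cysteine members were tRF5 fragments, 11 of them of length 22 and led by tRF5-22-CysGCA-10, with log2 levels of 14.44, 14.51, 15.89, 14.24, 14.66 and 14.49 and ranks of 47 to 75. tRF5-22-CysGCA-28 and tRF5-22-CysGCA-22 had mean ranks of 77.7 and 78.3. For tRF5-22-CysGCA-10, WT 3 was the highest array and the other 5 lay within 14.24 to 14.66. The names mark copies of 1 tRNA family, whose probes may read the same fragment, and they count as 1 signal rather than 11. Length 22 held 21 of the 33 tRF5 members, of 149 tRF5 named at that length.

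Aspartate tRNA was read by probes named for the whole tRNA and for pieces from both ends. Whether each probe reads only the molecule it is named for was not tested. Below Asp-GTC-2 and Asp-GTC-1 came tRF3a-AspGTC-3 (mean rank 39.7), tRF3a-AspGTC-4 (52.0), tRF3b-AspGTC-3 (69.8), 3'tiRNA-40-AspGTC-3 (88.0) and tRF5-23-AspGTC-1 (94.7). tRF3a-AspGTC-3 read 16.18, 14.28, 17.05, 13.81, 16.28 and 15.96, lowest on WT 2 and PS19 1, the arrays where Asp-GTC-2 was highest. The other 3 of these 3' pieces were also lowest on WT 2 and PS19 1, while the 5' piece tRF5-23-AspGTC-1, at 13.47, 15.97, 9.58, 15.83, 14.96 and 15.13, was highest there, as the whole tRNA was. Ser-GGA-1 (49.2) and the mitochondrial chrM.tRNA15-ProTGG (178.5) were the next full-length tRNAs. Of other fragments, tRF3a-LysCTT-10 (90.8) was the highest lysine tRF3, 5'tiRNA-34-PheGAA-1 (ranks of 45 to 263) and 5'tiRNA-35-PheGAA-1 (145.4) followed the alanine 5' piece, and 3'tiRNA-41-AsnGTT-1 (100.5) the aspartate 3' piece. Tyrosine members were mostly 5'tiRNAs, led by 5'tiRNA-34-TyrGTA-5 (206.3). Mitochondrial tRNAs gave 8 members of 54 named. The fragment mt-3'tiRNA-38-ValTAC (266.7) ranged from 117 to 539.

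Set against the supernatant of the same array, the pull-down had nearly the same order. Spearman's rho of the members' CLIP and supernatant ranks was 0.916 on WT 1 and 0.950 to 0.982 on the other 5 arrays, and 76 to 96 of the 100 highest were shared. All but 1 of the members were well above background in the supernatant on all 6 arrays, and that member, mt-3'tiRNA-38-ValTAC, was so on 5. The log2 ratio of CLIP over supernatant, centred on each array's median over all RNAs tested, had a median of 0.14 over the members. It was above 0 on every array with a value for 105 members and below 0 for 21, and for some members those arrays were fewer than 6. Red signal chose the members and is the numerator of the ratio, so the rule itself favours values above 0. The same counts over all RNAs were not taken. Over the same 545 members, the counts without WT 1 were 130 and 30 and the median was 0.085. Without WT 3 the counts were 123 and 44 and the median 0.12. Fewer arrays then have to share a sign, so a rise in these counts was to be foreseen. A mean above 1 was seen for 11 members and one below -1 for 2. No control pull-down sets a level for the ratio, and dyes were not swapped, so the ratio's size includes any dye difference.

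Rank differences were taken among the members with a value in both channels, 457 on WT 3 to 545 on PS19 3, since spot flags removed more CLIP than supernatant values on WT 1 and WT 3. The members higher in CLIP rank were led by Leu-CAA-3, a leucine tRNA, with a CLIP minus supernatant rank of -83.8 on average. Its differences were -275, -10, -106, -12, -78 and -22 on WT 1 to WT 3 and PS19 1 to PS19 3. Its centred log2 ratios were 3.29, 0.93, 1.90, 0.65, 0.79 and 0.34, a mean of 1.32 ± 1.1 (SD, n = 6), above 0 on all arrays and highest on WT 1 and WT 3. Next came Gm25480 (-81.8 over 4 arrays), the precursor mmu-mir-200c (-70.4 over 5), DQ267102 (-58.7 over 6) and mmu-mir-143 (-57.2 over 5), the precursor of a vascular microRNA. mmu-mir-143 had ratios of 3.33 and 2.20 on WT 1 and WT 3 and -0.75, 0.68 and 0.64 on the PS19 arrays. The ratios of Leu-CAA-3, mmu-mir-200c, mmu-mir-143 and DQ267102 were highest on WT 1, and Gm25480 had no ratio there.

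The members lower in CLIP were led by pieces of 1 mitochondrial tRNA: mt-tRF3a-GlyTCC (98 places), mt-tRF3b-GlyTCC (92) and mt-3'tiRNA-39-GlyTCC (90.5), the 3 named mitochondrial glycine RNAs. The 3' tiRNA stood 32 to 161 places lower in CLIP over the 6 arrays. Its centred log2 ratios were -0.02, -2.58, -0.29, -2.26, -0.91 and -0.52, below 0 on all arrays. The ratio was lowest on WT 2 and PS19 1, which shared a scan, and near 0 on WT 1. The pieces overlap in sequence by their names and share a source, so they are 1 observation. mmu-miR-466h-3p (70.8 places) and mmu-miR-466i-3p (68), members of a repeat-derived rodent family, had ratios below -1 on WT 2, WT 3 and PS19 1 and above 0 on WT 1 and PS19 2.

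**Figure D5:**
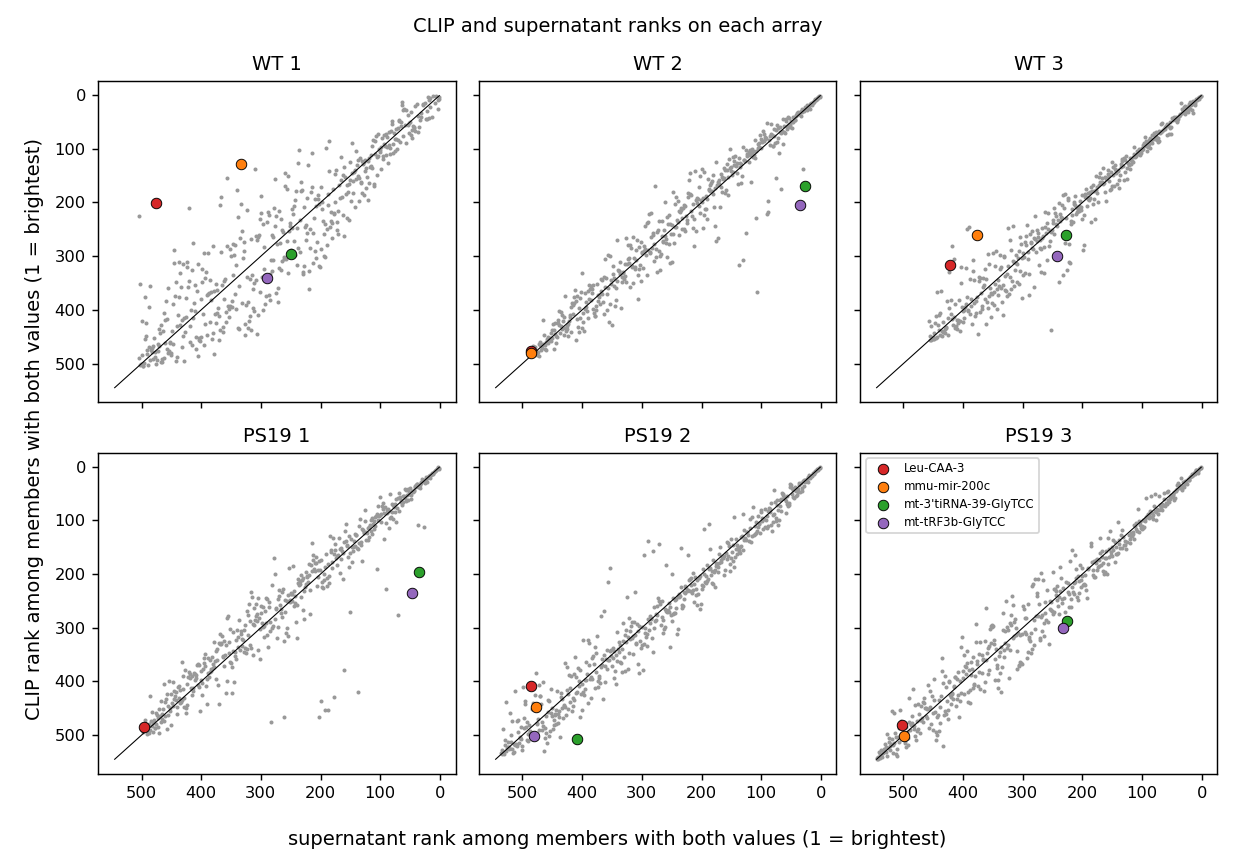
Each panel plots the CLIP rank against the supernatant rank of the members with both values and on at least 4 arrays, on 1 array (1 is brightest, at the upper right), with the line of equal ranks and 4 members in colour. Points hug the line on 5 arrays (rho 0.950 to 0.982) and spread on WT 1 (0.916); the mitochondrial glycine pieces lie below it on WT 2 and PS19 1.

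Genotype was also compared. The choice of members used the CLIP levels, so that test is given for description only. CLIP levels, supernatant levels and their ratio were fitted with limma over all RNAs with enough signal, with Benjamini-Hochberg adjustment. Of 2356 RNAs tested in CLIP 0 passed (0% called), and 0 of the 516 members tested. At an unadjusted p under 0.05, 2.16% of all RNAs were counted (1.91% higher and 0.255% lower in PS19), and of the members 6 higher and 5 lower. That balance depends on the setting. Members counted were 0 higher and 29 lower when scaled to the 75th percentile of all probes, against 54 of all 2356 RNAs. With the deposited value table they were 0 and 13, against 26 of all 2356. Without WT 2 they were 70 and 8 of 435 members, against 958 of all 2270. In the supernatant, which the rule did not use, 0 of 520 members passed (0% called of 3727), and without adjustment (p under 0.05) 2 members were counted higher and 11 lower in PS19, against 2.79% of all RNAs (1.74% higher, 1.05% lower). Without WT 2 they were 9 higher and 76 lower of 511 members, a larger share than over all 3710 RNAs tested. With adjustment 0 of those 3710 RNAs passed. For the ratio 0 of 504 passed (0% called of 3763), and without adjustment 0 members were counted higher and 6 lower, against 4.12% of all RNAs (1.99% higher, 2.13% lower). The direction turned with normexp background correction, which counted 177 members higher and 0 lower, against 621 of all 3763 RNAs. Without WT 2 the counts were 0 and 31 of 430 members, against 266 of all 3680 RNAs. These members passed the filter on low signal by the rule that chose them, so their count supports nothing. In bulk tissue fewer cells of a type and less RNA per cell cannot be told apart. The median log2 difference of the members, PS19 minus WT, was 0.34 in CLIP (-0.50 when scaled to the 75th percentile of all probes), where that of all RNAs tested was 0.85 (-0.03 so scaled), -0.17 in the supernatant (all 0.10) and -0.18 in the ratio (all -0.02). The supernatant median was 0.07 after quantile normalisation, and the ratio median 0.68 with normexp and 0.04 with no centring, so the sign of each depends on the scaling. With scans unevenly spread over genotypes, a genotype difference and a scan difference cannot be told apart for WT 1, WT 3, PS19 2 and PS19 3. With the scan as a fixed block, where WT 2 against PS19 1 carries the comparison, 0 members passed in CLIP and their median difference was 0.06.

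The members with the smallest p did not pass. mmu-miR-8110 differed by 3.38 in CLIP (limma, adjusted p = 0.773), with scaled log2 levels of -1.02, 1.48 and 1.17 on WT 1 to WT 3 and 1.56, 4.89 and 5.32 on PS19 1 to PS19 3. The WT mean was 0.54 ± 1.36 (SD, n = 3) and that of PS19 was 3.92 ± 2.06 (SD, n = 3). Only PS19 2 and PS19 3 stood above all WT arrays by a wide margin. Next were mmu-mir-143 (-3.30) and tRF5-20-SerAGA-3 (2.58). In the supernatant mmu-miR-202-3p differed by -2.35 (limma, adjusted p = 0.928), with levels of 7.20 and 6.90 on WT 1 and WT 3, a flagged spot on WT 2, and 4.44, 5.05 and 4.61 in PS19. mmu-miR-710 (-2.32) and mmu-miR-1967 (-2.07) had the same 5 arrays with values. In the ratio mmu-mir-143 differed by -2.58 (limma, adjusted p = 0.989), Gm26368 by -2.40 and DQ267102 by -1.71, and all 3 were highest on WT 1.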

How the data were processed

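The deposited scanner files hold intensity values of 2-colour arrays. Per the file headers, Agilent's Feature Extraction (11.0.1.1) subtracted background and normalised dyes within each array. Red is CLIP, green supernatant, per the labels' protocols. The deposited value table holds log2 values equal to the log2 red processed signal minus 1 offset per array. A further table deposited by the authors lists 2380 RNAs, each with a p-value and a log2 fold.

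Names were linked to probes where that log2 fold (tolerance 1e-09) and p-value (tolerance 1e-07) equalled those recomputed from 1 probe or the mean of up to 5 neighbours; each of 2380 names matched 1 of 557616 candidate sets. Of 223 transcripts named by symbol, 193 were in the gene table of GRCm38.p6 (149 as snoRNAs). Symbols are given without the authors' transcript suffix. Control spots, 7 spike-in probes and 50 probes with another code were left out.

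An RNA's level is the mean log2 processed signal of its probes. It has no value on an array where one carries a spot outlier flag. Background outlier flags were ignored, a choice made after seeing the data, because 19 to 41 of the 100 brightest spots of an array carried a flag of either kind. No spot was saturated. Shares of summed signal leave no spot out.

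Tests used limma 3.58.1 (lmFit and eBayes, R 4.3.3) on RNAs above background on at least 3 arrays with at least 2 values per genotype. Levels were taken minus the array's 75th percentile and ratios minus its median. The code was tried on simulated data with very large shifts, independent noise and no scan effect. That trial does not show how the tests perform on these arrays. The number of arrays and the signal over background limit the precision. RNAs named are the 20 highest members; the 4 highest of each class; the 5 highest and 5 lowest by CLIP against supernatant rank (both ranked over members with both values, a choice made after seeing the data; ranks over each channel's own values name the same 10); the 5 widest and 5 narrowest rank ranges in the top 100; 3 at each side of the threshold; the 3 smallest p of each test; and up to 4 of each list. Other names were chosen after their values were seen. The members and lists were chosen with earlier results of these data known.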

Additional observations from a re-analysis of the deposited data

Results flagged for a closer look

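The array also carries 50 probes with another code, printed in 10 spots each and used in no comparison. Of these, 6 were well above background in over 50% of their spots in the CLIP channel on all 6 arrays. The files used here do not name them.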

How the results depend on the processing

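The size of the pool depends on the threshold: it was 1361 RNAs with at least 5 of 6 arrays, 2386 with at least 3 and 361 where every probe of an RNA had to pass. Leaving out 1 array gave 545 to 1250, the latter without WT 1. The 13 settings for the pool include 9 within 1.5 times of 545. The order was steadier across settings. Of the 100 highest, 81 to 100 were shared under 15 settings, and mature microRNAs numbered 54 to 73 of the 100, most where probes were ranked singly. The deposited value table, 1 of these settings, differs from the main levels by 1 offset per array, so its 100 shared were fixed in advance. The median rho of CLIP and supernatant ranks was 0.970, and 0.943 with at least 5 arrays. Leaving out 1 array gave 0.969 or 0.971, the values of WT 2 and WT 3. These are the middle values of the 6 arrays, so this outcome was fixed in advance. In the genotype test of the CLIP level 0 members passed. With normexp 5 did, with the scan as a random block 2 and with array quality weights 8. Where 1 value per genotype was enough, a setting chosen after seeing the data, 2 did. Over all RNAs the calls were 5, 13 and 36 of 2356 and 2 of 2381 in the same order. Leaving out any array gave 0 members, and without WT 3 1 of all 2310 RNAs passed. The median difference of all RNAs ran from -0.10 with normexp to 1.53 without WT 2. With the replicate number as a block 0 members passed in each of the 3 tests. The arrays share only a number: deviations of same-numbered arrays correlated by -0.26, -0.58 and 0.25. For the supernatant and the ratio 0 members passed under each of 17 settings. The causes of these shifts were not tested. The smallest pool depth is that of WT 1, with 1501 probes above background.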
